A study of Mus musculus with 6 samples.

Results

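Purine and adenosine receptors were followed through 10 genes, P2rx4, P2rx6 and P2rx7 (P2X channels), P2ry2, P2ry6, P2ry13 and P2ry14 (P2Y receptors), and Adora2a, Adora2b and Adora3 (adenosine receptors). These were taken by name from the 54532 genes of the deposited count table. The samples were N9 microglia, an immortalized cell line from mouse brain, left untreated (control, 3 libraries) or kept with LPS, the endotoxin of gram-negative bacteria, at 1 µg/ml for 6 h (LPS, 3 libraries). All libraries came from this 1 cell line, and the labels do not say whether the replicates were separate cultures, so that p-values measure the spread between these samples only. Total counts lay between 16363767 and 17956772 per library.

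Purine receptors are the cell-surface proteins through which extracellular ATP, other nucleotides and adenosine act on microglia. They fall into P2X receptors, which are cation channels opened by ATP, P2Y receptors, which are G protein-coupled receptors for ADP, ATP, UTP, UDP or UDP-sugars, and adenosine receptors, which are G protein-coupled and raise or lower cyclic AMP. Released nucleotides signal tissue damage, and ectonucleotidases on the cell surface convert them stepwise to adenosine, so that the balance between the receptor classes is known to shape microglial movement, phagocytosis and cytokine release.

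Of the 10 genes, 5 passed the filter on low counts and were tested (P2rx4, P2rx7, P2ry2, P2ry6 and Adora2b), each with at least 104 counts in every library. With LPS, 4 of these 5 rose at an adjusted p under 0.05 (edgeR) and none fell. Among all 12296 genes tested, 18.7% rose and 15.7% fell at that threshold. The receptor genes were chosen with earlier results of these data known, so the count is a description. Adora2b rose 3.38-fold and was the one member past the study's thresholds for a DEG (adjusted p under 0.05 and absolute log2 fold change over 1.5), which 2.65% of all tested genes passed, and 2.40% upward. P2ry2, P2ry6 and P2rx4 rose 1.73-fold, 1.67-fold and 1.45-fold, and P2rx7 did not pass the test. The median log2 fold change of the 5 tested members was 0.74, beside 0.0036 over all tested genes. P2ry13, P2ry14, Adora2a and Adora3 were at or near the limit of counting. So was P2rx6, except in control replicates 2 and 3, where it had 15 and 19 counts.

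The stretches just before the transcription start of Adora2b, P2ry2, P2rx4 and P2rx7 are shown because these genes span the responses seen, from the largest increase to a gene that did not pass the test, and because P2rx4 and P2rx7 lie next to each other. Each run is the 250 bases before the start in RefSeq on GRCm38.p6, read 5′ to 3′ on the strand of the gene. Where RefSeq lists several starts, the one nearest to the start in the deposited table was taken, and for P2ry2 and P2rx7 it lies inside the deposited gene model. RefSeq windows were matched for 8 of the 10 members. Capitals mark matches on either strand to short letter patterns chosen here. These are GGG and CC with any 5 bases between them for NF-kB, GAAA repeated after any 2 bases for the interferon response element, and TGANTCA for AP-1. The others are TGACGTCA for the cyclic AMP response element, GGAAGT for PU.1 and GGGCGG for the GC box. The NF-kB pattern leaves those 5 bases free, so a match to it need not be an NF-kB motif. Matches that overlap run together in one stretch of capitals.
Adora2b (chr11:62248734-62248983, plus strand): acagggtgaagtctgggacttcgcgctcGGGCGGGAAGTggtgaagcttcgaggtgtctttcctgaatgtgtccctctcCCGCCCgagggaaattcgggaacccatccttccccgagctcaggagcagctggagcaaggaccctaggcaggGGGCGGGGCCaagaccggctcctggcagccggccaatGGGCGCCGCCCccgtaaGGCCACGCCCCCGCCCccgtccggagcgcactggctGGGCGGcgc
P2ry2 (chr7:101012054-101012303, minus strand): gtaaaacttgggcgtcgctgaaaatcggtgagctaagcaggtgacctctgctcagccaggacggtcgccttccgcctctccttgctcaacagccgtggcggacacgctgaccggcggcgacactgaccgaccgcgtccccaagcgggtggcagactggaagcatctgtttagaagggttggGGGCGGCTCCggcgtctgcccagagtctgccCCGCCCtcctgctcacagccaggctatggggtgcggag
P2rx4 (chr5:122707294-122707543, plus strand): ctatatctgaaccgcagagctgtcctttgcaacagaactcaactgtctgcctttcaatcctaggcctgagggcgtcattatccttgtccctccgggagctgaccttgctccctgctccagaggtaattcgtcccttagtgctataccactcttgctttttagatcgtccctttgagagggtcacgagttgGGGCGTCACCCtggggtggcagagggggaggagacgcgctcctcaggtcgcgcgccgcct
P2rx7 (chr5:122643677-122643926, plus strand): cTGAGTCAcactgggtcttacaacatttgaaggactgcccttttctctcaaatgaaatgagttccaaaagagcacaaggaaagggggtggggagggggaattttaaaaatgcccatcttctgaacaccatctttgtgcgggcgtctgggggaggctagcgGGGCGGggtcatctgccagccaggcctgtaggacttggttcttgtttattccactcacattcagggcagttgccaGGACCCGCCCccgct

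The NF-kB letters matched 4 times in the Adora2b stretch, partly overlapping, 2 overlapping times in that of P2rx4 and once in those of P2ry2 and P2rx7. These letters are common, and 45.8% of the 32851 RefSeq windows of the same length hold them. P2rx7, which did not pass the test, held them as did the 3 genes shown that rose. The GC box matched 6 times before Adora2b, 2 times before P2ry2 and before P2rx7, and not before P2rx4. It is held by 32.7% of all windows. Before Adora2b, P2ry2 and P2rx7, NF-kB matches shared bases with GC box matches. Matches per window were not counted over all windows, so the 6 and 4 matches before Adora2b have no background. AP-1 letters, which 6.75% of windows hold, were found before P2rx7, and PU.1 letters, which 19.7% hold, before Adora2b. The interferon response element and the cyclic AMP response element were not matched in these 4 stretches, and are held by 2.98% and 1.55% of windows. A match describes the letters only, and says nothing of binding.

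Adora2b (ENSMUSG00000018500, chromosome 11 from 62248984 to 62266453 on mm10) encodes an adenosine receptor of low affinity that couples to Gs and raises cyclic AMP. It was counted at 134, 104 and 133 reads without LPS and at 338, 433 and 373 reads with it, in the order of replicates 1, 2 and 3. The groups did not overlap, and the gap between them exceeded the spread within either. Among all tested genes, 23.7% were higher in each LPS library than in each control. In CPM (counts relative to the TMM-normalized library size) Adora2b rose from 6.95 ± 0.977 to 23.5 ± 2.58 (SD, n = 3), which on the log2 scale was a difference of 1.76 with an SE of 0.12 (adjusted p = 3.4e-08, edgeR). The 95% interval of that change, 1.49 to 2.02, reaches just under the threshold of 1.5 for a DEG. Leaving out any 1 library kept the log2 fold change between 1.64 and 1.84, so that Adora2b remained a DEG in all 6 of these fits.

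The other adenosine receptor genes were hardly counted. Adora2a (ENSMUSG00000020178, chromosome 10 from 75316877 to 75334784), whose Gs-coupled product has a higher affinity for adenosine, was counted at 1, 0 and 1 reads without LPS and at 6, 0 and 1 reads with it. Adora3 (ENSMUSG00000000562, chromosome 3 from 105870858 to 105908926), whose product couples to Gi and lowers cyclic AMP, had 0, 4 and 3 counts against 6, 0 and 7. For both genes the groups overlapped and no library exceeded 7 counts. Adora3 also overlaps Tmigd3 on the same strand of chromosome 3, and Tmigd3 had from 0 to 4 counts per library, so reads of these genes could be divided or lost in counting. Adora1, a Gi-coupled adenosine receptor outside the 10 genes, had 1 count in control replicate 1 and none elsewhere. Per kilobase of gene length, Adora2b made up 98.6 ± 0.612% of the counts of the 4 adenosine receptor genes in control and 99 ± 0.958% with LPS (SD, n = 3). With so few counts of the other 3 genes this share could hardly move, whatever the level of Adora2b.

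**Figure D1:**
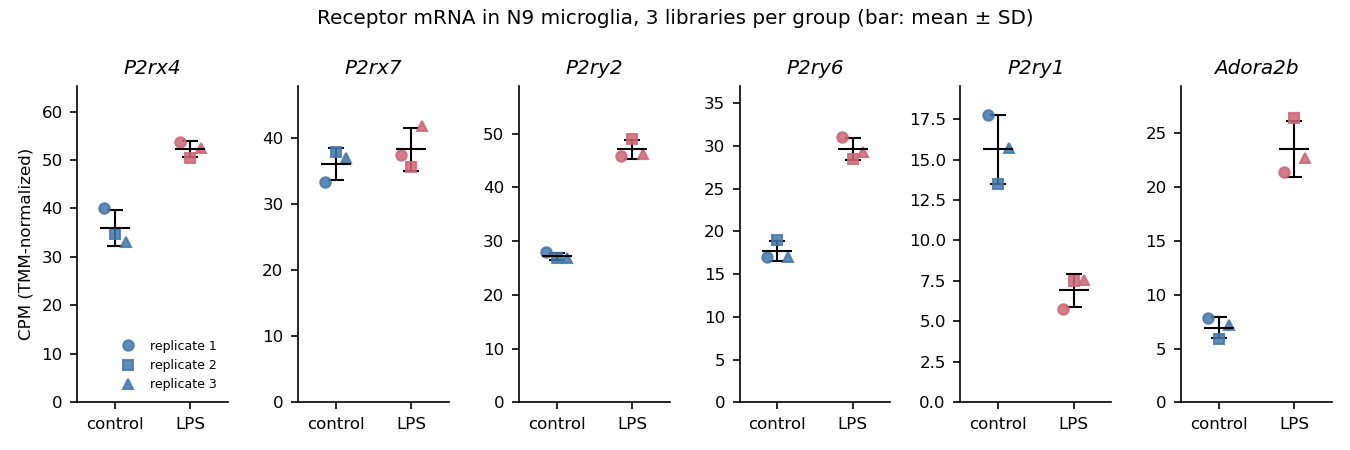
CPM of 6 receptor genes (y axis, from 0) in control and LPS libraries of N9 microglia. Each point is 1 library, its shape the replicate number, and the bar is the mean ± SD of 3 libraries. The LPS libraries of Adora2b, P2ry2, P2ry6 and P2rx4 lie above all control libraries, those of P2rx7 overlap them, and those of P2ry1 lie below them.

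P2ry2 and P2ry6 encode Gq-coupled receptors that release calcium from internal stores, P2ry2 for ATP and UTP and P2ry6 for UDP, which is known as a signal for microglial phagocytosis. They are neighbours on chromosome 7, with 21918 bases between them and both on the minus strand. P2ry2 (ENSMUSG00000032860, from 100996568 to 101012866) was counted at 479, 474 and 499 reads without LPS and at 725, 806 and 761 reads with it, in the order of replicates 1, 2 and 3. The 3 control libraries lay close together and far below the LPS libraries. P2ry2 rose from 27.2 ± 0.638 to 47.1 ± 1.75 CPM (SD, n = 3), which on the log2 scale was a difference of 0.79 with an SE of 0.07 (adjusted p = 2.0e-07, edgeR). P2ry6 (ENSMUSG00000048779, from 100937630 to 100974649) had 291, 336 and 317 counts in control and 490, 467 and 482 with LPS, again without overlap. It rose from 17.7 ± 1.17 to 29.6 ± 1.31 CPM (SD, n = 3), which on the log2 scale was a difference of 0.74 with an SE of 0.08 (adjusted p = 6.0e-06, edgeR). The 95% intervals of the log2 fold changes, 0.65 to 0.93 for P2ry2 and 0.56 to 0.92 for P2ry6, largely coincided and excluded the threshold of 1.5. P2ry6 overlaps the gene model Gm44545, which had 0 counts.

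P2ry13 and P2ry14 lie on chromosome 3 in a cluster with P2ry12, the ADP receptor used as a marker of resting microglia. P2ry13 (ENSMUSG00000036362, from 59207892 to 59210882), a Gi-coupled receptor for ADP, was counted at 7, 1 and 6 reads without LPS and at 3, 2 and 0 reads with it, and the groups overlapped. P2ry14 (ENSMUSG00000036381, from 59113855 to 59153618), a Gi-coupled receptor for UDP-glucose, had 0 counts in all 6 libraries. A count of 0 allows up to 3 counts, or between 0.161 and 0.19 CPM depending on the library, for counting error only. P2ry12, which is not among the 10 genes, had 5, 6 and 3 counts in control and 6, 4 and 3 with LPS. All 3 genes of the cluster overlap Med12l on the opposite strand, which had from 0 to 2 counts per library.

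Of the other 9 purine receptor genes, P2ry1 was the one that passed the filter, and it moved the other way from the members that rose. P2ry1 encodes a Gq-coupled receptor for ADP. It overlaps the antisense gene Gm37035, which had at most 2 counts. P2ry1 was counted at 304, 238 and 292 reads without LPS and at 91, 123 and 124 reads with it. With LPS it fell from 15.6 ± 2.13 to 6.93 ± 1.01 CPM (SD, n = 3), which on the log2 scale was a difference of -1.17 with an SE of 0.14 (adjusted p = 1.0e-05, edgeR). P2rx1, P2rx3 and P2rx5 had at most 5 counts in any library, P2rx2 at most 1, and P2ry4 and P2ry10 none.

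These opposite changes altered the makeup of the P2Y class. Per kilobase, P2ry2 made up 41 ± 0.181% of the counts of the 8 P2Y genes in control and 49.9 ± 1.47% with LPS, and P2ry6 went from 36.3 ± 2.87% to 42.7 ± 2.07% (SD, n = 3). P2ry1 went from 21.5 ± 2.52% to 6.73 ± 0.988%. For each of the 3 genes the shares of the groups did not overlap, and in CPM the groups did not overlap in 45.3% of all tested genes. Such shares sum to a fixed total within a library, so that a lower share of one gene raises those of the others. No test was run on the shares.

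**Figure D2:**
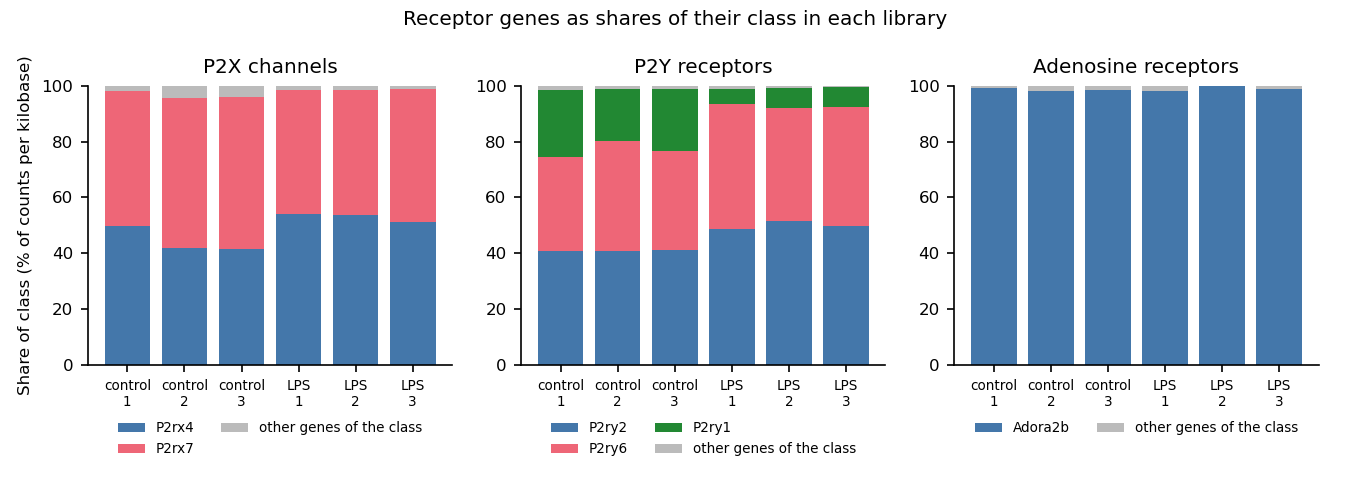
Share of each receptor gene in its class, as a percentage of counts per kilobase (y axis), in each of the 6 libraries (x axis). Colours are genes, with genes that stay at or below 5% on average in both groups joined in grey. In the P2Y class P2ry1 takes 21.5% in control and 6.73% with LPS, and Adora2b takes nearly all of the adenosine class in every library.

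P2rx4 and P2rx7 encode ATP-gated cation channels that occur together in macrophages and microglia. P2rx7 needs high ATP and is known for triggering potassium efflux, activation of the NLRP3 inflammasome and release of Il1b protein, and P2rx4 responds to lower ATP. Both genes lie on the plus strand of chromosome 5, with 16111 bases between them. P2rx4 (ENSMUSG00000029470, from 122707544 to 122729738) was counted at 689, 614 and 614 reads without LPS and at 848, 828 and 863 reads with it, in the order of replicates 1, 2 and 3. Its LPS libraries lay above all control libraries, of which replicate 1 was highest. P2rx4 rose from 36 ± 3.74 to 52.2 ± 1.64 CPM (SD, n = 3), which on the log2 scale was a difference of 0.54 with an SE of 0.07 (adjusted p = 4.3e-05, edgeR).

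P2rx7 (ENSMUSG00000029468, from 122643911 to 122691432) had 571, 669 and 686 counts in control and 590, 583 and 687 with LPS, and the groups overlapped. The gene also overlaps Mir8115, which had 0 counts. At 36 ± 2.41 and 38.2 ± 3.22 CPM (SD, n = 3) it differed by 0.09 on the log2 scale, with an SE of 0.08 (adjusted p = 0.44, edgeR). The 95% interval of the change was -0.08 to 0.25. The ratio of P2rx4 to P2rx7 counts was 0.27, -0.12 and -0.16 without LPS and 0.52, 0.51 and 0.33 with it, on the log2 scale. Every LPS ratio was above every control ratio, with a difference of the means of 0.46. A two-sided exact permutation test over the 6 libraries gave p = 0.1, the smallest that 3 against 3 can give, and adjustment over the 2 ratios tested left it at 0.1. The other ratio, Adora2b to P2ry2, differed by 0.97 on the log2 scale with p = 0.1 in the same exact permutation test. Neither ratio was among the planned results. Each pairs genes whose own changes differed, so the ratios are a description and no separate test. As shares of the 7 P2X genes per kilobase, P2rx4 went from 44.4 ± 4.63% to 53 ± 1.72% and P2rx7 from 52.3 ± 3.3% to 45.6 ± 1.93% (SD, n = 3). These shares of P2rx4 and P2rx7 sum to nearly the whole class, so that a higher share of one is a lower share of the other.

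P2rx6 (ENSMUSG00000022758, chromosome 16 from 17561885 to 17577800) encodes a P2X subunit that forms channels poorly on its own. It was counted at 3, 15 and 19 reads without LPS and at 2, 1 and 1 reads with it, in the order of replicates 1, 2 and 3. Every LPS library was below every control library, but control replicate 1 stood close to the LPS libraries. The gene did not pass the filter and was not tested in the fit reported here. The 37 control counts against 4 with LPS make a ratio of 8.42 after scaling for library size, with an exact counting interval of 3.03 to 32.5 that does not include the spread between replicates. DESeq2, which has its own filter, gave a log2 fold change of -3.06 (SE 1.1, adjusted p = 0.0235), and edgeR without a filter on low counts one of -2.96 (adjusted p = 0.00233). P2rx6 could pass the filter on low counts only through control replicates 2 and 3, where it was high, and it was filtered out when either was left out, so its calls in fits with that filter are no test of a change. The values of DESeq2 and of the unfiltered fit rest on the same 2 control libraries, so they are not read as a test of a change either.

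Markers of another cell type moved with P2rx6. Of 16 hepatocyte markers, 15 were matched in the table. Hp, an acute phase gene counted at 876 or more in every library, was the one that was tested, and it rose (log2 fold change 1.32, edgeR adjusted p = 8.7e-12). The sum of the other 14 was 4, 317 and 495 reads in the controls, again in replicate order, and 5, 6 and 11 reads with LPS. Of the 14, 11, 0 and 1 were at 0 in the controls and 12, 11 and 12 with LPS. Alb alone, the albumin gene, had 2, 155 and 292 counts in control and 2, 0 and 0 with LPS. The control libraries high in P2rx6 were those high in these markers, and the part of such RNA in the P2rx6 counts was not tested. Control replicate 1 alone, with 3 counts, gave a ratio to LPS of 2.13 with a counting interval of 0.312 to 12.6, which includes no change. P2rx6 also overlaps Slc7a4 on the opposite strand, which had 43, 51 and 45 counts in control and 19, 18 and 24 with LPS. The handling of strand in counting is not given in the sources used here, so that reads from the overlap cannot be assigned with certainty. With control replicate 1 alone against the LPS libraries, a fit added after the data were seen in which its variation is assumed to be like that of the LPS libraries, 4 of the 5 tested members passed an adjusted p of 0.05. In this fit the log2 fold change of P2rx4 was 0.38 and that of P2rx7, which did not pass, was 0.20, closer to each other than with all 3 control libraries.

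**Figure D3:**
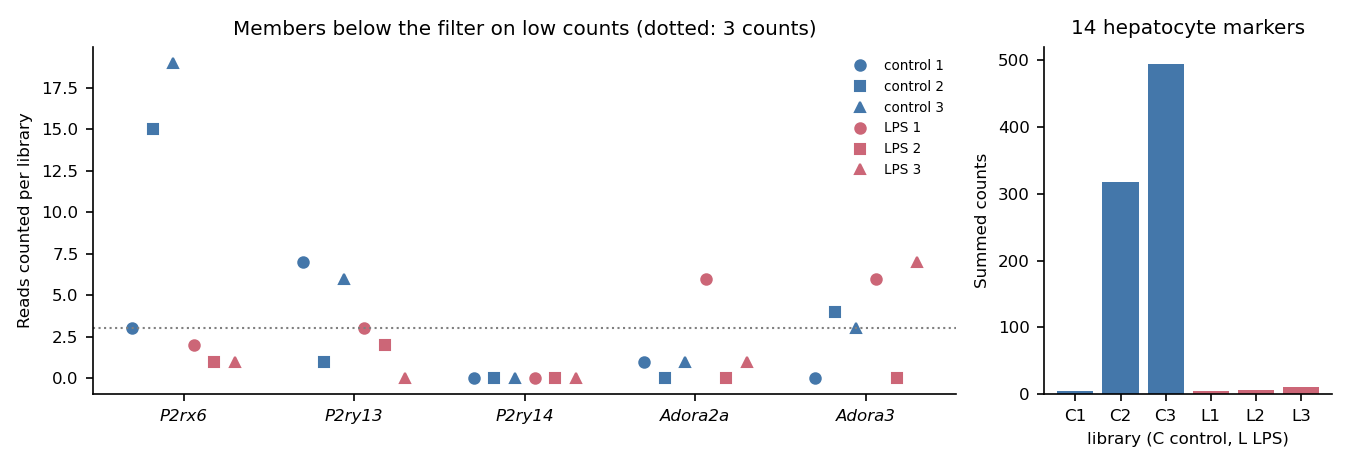
Left, reads counted per library (y axis) for the 5 receptor genes below the filter on low counts, with control libraries in blue, LPS libraries in red and the shape giving the replicate number. Right, summed counts of 14 hepatocyte markers in the same libraries. P2rx6 reaches 15 and 19 counts in control replicates 2 and 3, the libraries in which the markers sum to 317 and 495.

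Between genes, levels can be compared only per length. On the scale of CPM per kilobase of the listed gene length, the order in control was P2ry2 at 6.93 ± 0.162, P2ry6 at 6.12 ± 0.405, P2rx7 at 6.03 ± 0.403, P2rx4 at 5.12 ± 0.533 and Adora2b at 3.77 ± 0.530 (SD, n = 3). P2ry6 and P2rx7 did not differ beyond their spread, and P2rx4 reached from 4.7 to 5.72 and so overlapped P2rx7, which started at 5.58. With LPS the order was Adora2b at 12.7 ± 1.40, P2ry2 at 12 ± 0.445, P2ry6 at 10.3 ± 0.454, P2rx4 at 7.43 ± 0.234 and P2rx7 at 6.4 ± 0.540. Adora2b, the lowest of the 5 in control, was thus among the highest with LPS, where it overlapped P2ry2 in its range over libraries (11.6 to 14.3 against 11.7 to 12.5). The group means of the 5 remaining members lay at or under 0.171 on this scale, and P2rx6 reached 0.256 in control replicate 3. In bulk RNA, a change in the share of cells that express a gene and a change in RNA per cell cannot be told apart.

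The genes around the receptors were taken from lists of the purine pathway. For nucleotide release, 7 of 11 genes were tested, and 3 rose and 1 fell. Lrrc8d, a subunit of volume-regulated anion channels, rose from 74.2 ± 3.82 to 134 ± 4.08 CPM (SD, n = 3), which on the log2 scale was a difference of 0.86 with an SE of 0.05 (adjusted p = 3.9e-09, edgeR). Panx1, the pannexin channel through which ATP leaves the cell, had a log2 fold change of 0.45 (edgeR adjusted p = 1.6e-05), and the connexin gene Gja1 one of 0.18 (edgeR adjusted p = 0.0099). Slc17a9, the transporter that loads vesicles with nucleotides, fell by 0.48 on the log2 scale (edgeR adjusted p = 0.0019).

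Of 10 ectonucleotidase genes, 2 were tested. Nt5e, which makes adenosine from AMP at the cell surface, had 354, 359 and 423 counts in control and 195, 160 and 192 with LPS. Nt5e fell from 21.2 ± 1.31 to 11.3 ± 1.35 CPM (SD, n = 3), which on the log2 scale was a difference of -0.92 with an SE of 0.11 (adjusted p = 8.5e-06, edgeR). Acpp, an acid phosphatase that can also hydrolyse AMP, was named after its values were seen. It rose from 1.14 ± 0.108 to 2.54 ± 0.544 CPM, which on the log2 scale was a difference of 1.15 with an SE of 0.28 (adjusted p = 0.0052, edgeR). Entpd1, the ectonucleotidase by which microglia usually degrade ATP and ADP, was chosen likewise and had 1, 0 and 0 counts in control and 2, 0 and 1 with LPS.

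Of 11 genes for adenosine uptake and removal, 7 were tested, and 4 rose and none fell, by edgeR and by DESeq2. Slc28a2, a concentrative transporter of purine nucleosides, had 227, 222 and 240 counts in control and 546, 719 and 583 with LPS. Its difference of 1.56 on the log2 scale, with an SE of 0.10 (adjusted p = 1.3e-08, edgeR), passed the thresholds for a DEG. Pnp, the purine nucleoside phosphorylase, changed by 1.07 (edgeR adjusted p = 3.1e-09). The equilibrative transporters Slc29a3, which is found in lysosomes, and Slc29a1, at the cell surface, changed by 0.93 and 0.23 on the log2 scale (edgeR adjusted p = 8.1e-10 and 0.001). Ada and Adk, the enzymes that deaminate and phosphorylate adenosine, had log2 fold changes of 0.04 and -0.08, were named after their values were seen, and did not pass the test (edgeR adjusted p = 0.72 and 0.35).

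Downstream of the G protein-coupled members, 19 of 25 genes of the cyclic AMP pathway were tested, of which 2 rose and 7 fell (2 and 6 with DESeq2). Pde4b, a phosphodiesterase that degrades cyclic AMP, had 53, 53 and 35 counts in control and 333, 409 and 428 with LPS. It rose from 2.66 ± 0.674 to 24 ± 2.60 CPM (SD, n = 3), which on the log2 scale was a difference of 3.18 with an SE of 0.16 (adjusted p = 6.1e-10, edgeR), and was the one DEG of this list. The adenylyl cyclase Adcy9 changed by 0.37 (edgeR adjusted p = 0.0014), the catalytic subunit Prkacb of protein kinase A by -0.42 (edgeR adjusted p = 5.8e-06) and the phosphodiesterase Pde4a by -0.35 (edgeR adjusted p = 0.0051). Of 13 genes of the calcium pathway used by Gq-coupled receptors, 11 were tested, and 2 fell and none rose, by edgeR and by DESeq2. These were Gna15, a G protein subunit of the Gq family, at -0.47 (edgeR adjusted p = 0.0097), and Stim1, the calcium sensor of the endoplasmic reticulum, at -0.40 (edgeR adjusted p = 9.1e-04).

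All 9 genes of the route from P2rx7 to the NLRP3 inflammasome were tested, and 6 rose and 1 fell, beside 5 and none with DESeq2. Of the 9, 3 were DEG, all upward, beside 2.40% of all tested genes. Nlrp3 rose from 30.3 ± 2.67 to 87.6 ± 3.20 CPM (SD, n = 3), which on the log2 scale was a difference of 1.53 with an SE of 0.07 (adjusted p = 1.1e-10, edgeR), and Casp1, the protease of the complex, from 71.5 ± 1.89 to 114 ± 6.67 CPM (0.67, edgeR adjusted p = 8.8e-08). Txnip, a regulator of thioredoxin, changed by 0.40 (edgeR adjusted p = 7.6e-05). The rest of the list was named after its values were seen. Il18, at most 40 counts in any library, changed by 1.84 and Gsdmd by 0.20 (edgeR adjusted p = 0.001 and 0.023). Nek7 changed by -0.14 (edgeR adjusted p = 0.048). Pycard at -0.19 and Kcnk6 at -0.08 did not pass (edgeR adjusted p = 0.297 and 0.302). Il1b had 3, 5 and 0 counts in control and 155, 172 and 122 with LPS, and rose (log2 fold change 5.88, edgeR adjusted p = 1.2e-08). These are RNA values. In the paper's multiplex assay of N9 supernatants, at the same LPS dose and time, Il1b protein was not detected. In all lists outside the receptors that were members, 29 of 56 tested genes passed an adjusted p of 0.05, beside 34.3% of all tested genes.

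**Figure D4:**
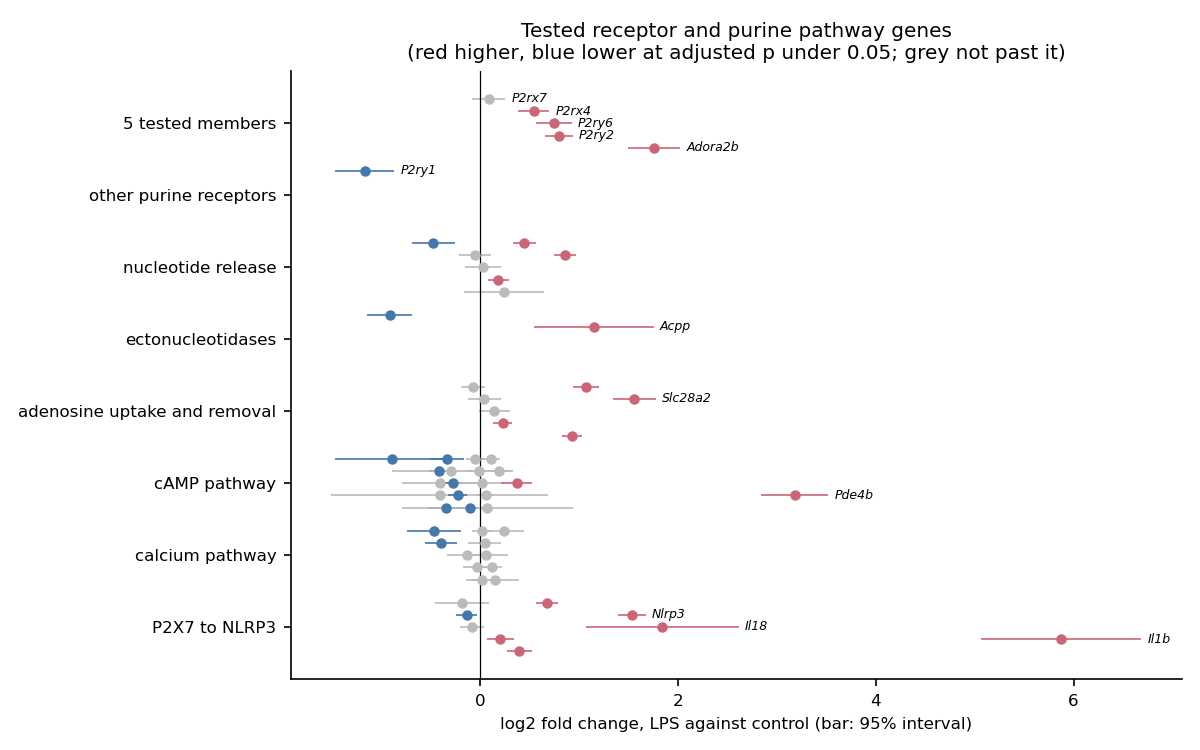
Log2 fold change of LPS against control (x axis) for the tested genes of each list (y axis), with 95% intervals from edgeR. Red genes were higher and blue genes lower at an adjusted p under 0.05, and grey genes did not pass it. Adora2b at 1.76 lies furthest to the right among the members, and P2ry1 at -1.17 is the one tested receptor to the left of zero.

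As a check of the label, the N9 libraries held some macrophage genes at high counts, with at least 7140 of Csf1r and 10267 of Cd68 in every library. Others were lower, with 173 to 272 counts of Itgam and 33 to 68 of Cx3cr1. Of 14 microglia and macrophage markers, 10 were tested, and 3 rose and 3 fell (edgeR adjusted p under 0.05). Among all tested genes, 18.7% rose and 15.7% fell. Of the genes that mark microglia in tissue, Tmem119 had at least 142 counts in every library, while some others were near 0. Siglech had 0 counts in all libraries, Sall1 had 1 count in 1 library and P2ry12 had from 3 to 6. Aif1, a marker of macrophages as well, had from 4 to 9. Lymphocyte markers summed to at most 3 counts in any library. Of the markers of other brain cells, Map2 and Tubb3 (neurons), Aldh1l1 (astrocytes) and Mbp (oligodendrocytes) made up most of the counts, while Olig2 had 0 counts in all libraries and Rbfox3, Mog and Olig1 at most 1. The 7 neuron markers summed to between 469 and 524 counts in control and between 467 and 535 with LPS, with Tubb3 higher (log2 fold change 1.67, edgeR adjusted p = 7.3e-07) and Map2 lower (-0.41, edgeR adjusted p = 0.0022). The 6 astrocyte markers summed to between 493 and 555 counts in control and between 353 and 414 with LPS, and the 6 oligodendrocyte markers to between 622 and 685 and between 464 and 475. The part of these differences in the receptor values was not tested.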

How the data were processed

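RNA of 3 control and 3 LPS samples of N9 microglia was sequenced, with library preparation, sequencing and bioinformatics by Novogene for the authors. The submitters' processing notes name featureCounts version 1.5.0-p3 and the build mm10. The aligner, the annotation release and the handling of strand are not given in the sources used here. The authors deposited whole-number read counts per gene for each library, without normalization. A second deposited table, with the authors' own fold changes and p-values, was not used here.

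Counts were tested with edgeR version 4.0.16 under R 4.3.3 (quasi-likelihood, TMM factors from 0.965 to 1.04, filterByExpr, prior count 0.125, group as the only term). Adjustment followed Benjamini and Hochberg across all 12296 genes tested. Standard errors are the log2 fold change divided by the square root of F. No source used here names molecular identifiers, so counting intervals cover counting error only. Within a group, library pairs differed by a chi-square of 3.47 to 7.35 per gene, above sampling noise, and each library counted as 1 sample. Alternatives were DESeq2 version 1.42.0, RLE factors, other filters, robust dispersion, a prior count of 2, a replicate block and each library left out. On simulated counts for this comparison, with changed genes of at least 50 counts on average and a median fitted absolute log2 fold change of 1.98, larger than those of P2rx4, P2ry2 and P2ry6, edgeR recovered 200 of 200 changed genes among 12315 tested, with 15 false calls. The simulation gave every gene the same dispersion, so its false calls do not carry over to genes that vary more. Recovery of smaller changes was not simulated.

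The members and gene lists were chosen with earlier results of these data known. Named are all members, all other receptors counted above 3 in a library, and per list up to 4 genes with an adjusted p under 0.05, a mean of at least 50 counts and the largest changes. Genes that overlap a member are named as well, and others were singled out after their values were seen. Promoter sequences come from RefSeq on GRCm38.p6. Figures used matplotlib version 3.10.9.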

Additional observations from a re-analysis of the deposited data

How the results depend on the processing

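The number of receptor genes past an adjusted p of 0.05 was 4 in the fit reported and 4 or 5 in every alternative, the added gene being P2rx6. Adora2b, P2ry2, P2ry6 and P2rx4 kept their direction and passed in all 15 alternatives, and P2rx7 passed in none, with adjusted p-values from 0.238 to 0.906. The number of DEG among the members was 1 and became 2, with P2rx6, under DESeq2, without a filter on low counts, and without a filter with robust dispersion, which was chosen after seeing the data. With each library left out in turn it lay from 1 to 2. It was 2 without control replicate 1 or without any one LPS replicate, and 1 without control replicate 2 or 3, where P2rx6 was filtered out. Since P2rx6 passes that filter only through control replicates 2 and 3, the added call in these fits is no test of its change. Its calls under DESeq2 and without a filter rest on the same libraries, and are not read as a test either. The number of other purine pathway genes past the threshold was 29 of 56 tested with edgeR and 26 of 59 tested with DESeq2. Among all 13916 genes tested with DESeq2, 1980 rose and 1615 fell at that threshold. With a replicate block, the members past the threshold were 4 and the DEG 1, as without it. The replicate numbers were not treated as pairs, since the correlations of same-numbered deviations were 0.14, 0.059 and -0.0042, and not every library correlated best with its own number. At this depth P2ry13, P2ry14, Adora2a and Adora3, at 7 counts or fewer in every library, allow no statement on a change.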
